A study of Mus musculus with 8 samples.

Results

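The macrophage and myeloid identity genes are a list of 38 mouse genes that mark macrophages and related white blood cells, chosen by gene symbol. On these arrays 34 of the 38 had a probe set annotated to that symbol alone, out of 14860 genes so annotated, and every measured member had a single such probe set, so the rule of taking the brightest one (by its mean on the 8 arrays) made no choice. Csf2ra and Dock2 had no such probe set, Lyz2 was annotated only together with Lyz1 and Ms4a7 only together with Ms4a14, so these 4 are not analysed here. The tissue was the tibialis anterior (TA), the muscle at the front of the shin. All mice were males aged 8 weeks with a muscle knockout of the transcription factor ATF4 (ATF4 mKO), so both groups carry that deletion. Each of 4 control arrays held RNA of a left muscle that had received the empty plasmid pcDNA3, and each of 4 others held RNA of a right muscle that had received pCMV-FLAG-Gadd45a, which encodes tagged Gadd45a, a small nuclear stress protein. All muscles were taken 7 days after transfection.

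Plasmid and side of the body cannot be told apart, nor can Gadd45a and the making of any tagged protein. The labels name no Cre driver for the knockout, and no muscle with intact ATF4 or without transfection was analysed. Whether each array of a group stands for its own mouse is not stated, and the p-values below measure array-to-array spread, some of which may be technical. Nor do the labels state whether same-numbered left and right muscles came from the same mouse, and the main fit did not pair them. A whole muscle holds many cell types, and more cells of a type cannot be told apart from more RNA per cell.

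Macrophages are phagocytes that take up dead cells, debris and lipids. Their survival depends on the receptor encoded by Csf1r and their identity on the transcription factor PU.1, encoded by Spi1. Healthy muscle holds resident macrophages, which commonly carry Mrc1, Cd163, Lyve1 and Folr2, and damage draws in monocytes that become inflammatory and later lipid-laden macrophages rich in Trem2, Gpnmb and Apoe RNA. The list was therefore read in 5 classes: lineage identity, resident-type, inflammatory, lipid-handling, and signalling genes shared by most leukocytes.

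Promoter windows of 6 members are shown because the results turn on these genes: in each class the riser with the largest difference among genes with 1 listed start, and Marco, the member that fell. Each window runs from 250 bases before to 50 after the start of the gene, is given 5′ to 3′ on the gene's strand, and comes from RefSeq with build GRCm38.p6. The genes lie at chr11:69666121-69666420 (Cd68, minus strand), chr2:128698665-128698964 (Mertk, plus), chrX:9469275-9469574 (Cybb, minus), chr6:49036268-49036567 (Gpnmb, plus), chr1:171839447-171839746 (Cd84, plus) and chr1:120504975-120505274 (Marco, minus). Capitals mark the PU box GAGGAA, the core bound by PU.1, on either strand (TTCCTC where it lies on the other strand), and the AP-1 site TGANTCA, which reads the same on both strands.
Cd68: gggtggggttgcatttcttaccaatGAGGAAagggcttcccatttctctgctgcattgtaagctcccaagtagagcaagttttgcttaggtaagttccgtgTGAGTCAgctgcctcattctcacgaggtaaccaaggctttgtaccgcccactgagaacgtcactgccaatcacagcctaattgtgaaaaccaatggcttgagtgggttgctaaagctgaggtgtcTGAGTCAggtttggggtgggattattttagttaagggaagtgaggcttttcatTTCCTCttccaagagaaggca
Mertk: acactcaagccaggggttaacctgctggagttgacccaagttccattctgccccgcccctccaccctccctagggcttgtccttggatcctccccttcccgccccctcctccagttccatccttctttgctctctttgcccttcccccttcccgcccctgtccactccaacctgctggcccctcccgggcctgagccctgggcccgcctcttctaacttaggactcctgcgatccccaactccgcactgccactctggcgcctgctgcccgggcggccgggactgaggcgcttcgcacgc
Cybb: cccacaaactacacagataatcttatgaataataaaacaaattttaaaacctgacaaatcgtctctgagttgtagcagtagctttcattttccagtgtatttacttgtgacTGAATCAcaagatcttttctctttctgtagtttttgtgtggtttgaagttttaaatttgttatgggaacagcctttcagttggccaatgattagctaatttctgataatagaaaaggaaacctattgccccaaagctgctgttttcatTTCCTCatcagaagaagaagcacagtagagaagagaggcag
Gpnmb: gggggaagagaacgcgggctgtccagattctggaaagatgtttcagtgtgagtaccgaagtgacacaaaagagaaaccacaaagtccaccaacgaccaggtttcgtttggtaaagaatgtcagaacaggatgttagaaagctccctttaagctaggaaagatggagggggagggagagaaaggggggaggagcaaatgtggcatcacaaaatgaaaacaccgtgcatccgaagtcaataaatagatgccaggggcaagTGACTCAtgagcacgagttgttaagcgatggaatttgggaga
Cd84: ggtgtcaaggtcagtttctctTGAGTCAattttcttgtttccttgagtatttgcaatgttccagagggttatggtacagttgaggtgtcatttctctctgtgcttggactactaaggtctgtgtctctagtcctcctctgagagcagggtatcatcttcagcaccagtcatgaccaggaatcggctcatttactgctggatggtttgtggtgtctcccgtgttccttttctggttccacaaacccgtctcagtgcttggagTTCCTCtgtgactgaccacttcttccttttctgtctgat
Marco: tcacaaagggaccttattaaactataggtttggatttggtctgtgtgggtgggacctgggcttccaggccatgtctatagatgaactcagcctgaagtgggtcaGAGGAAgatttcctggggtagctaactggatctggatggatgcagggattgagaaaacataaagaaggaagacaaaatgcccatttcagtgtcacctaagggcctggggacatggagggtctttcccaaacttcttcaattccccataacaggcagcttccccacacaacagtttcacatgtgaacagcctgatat

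The PU box was found in the windows of Cd68 (2 matches), Cybb, Cd84 and Marco (1 each), and the AP-1 site in those of Cd68 (2 matches), Cybb, Gpnmb and Cd84 (1 each). Neither motif was found in the Mertk window. Of the measured members, 23 had windows in the RefSeq table, 29 in all. A PU box lay in 14 of the 29 windows, against 28.3% of all 32851 windows of the same length, and an AP-1 site in 6 of 29, against 7.81%. The C/EBP sequence TTGCNNAA lay in 2 of 29 (10.8% of all windows), and the E-boxes TCATGTG and TCACGTG, bound by MITF and TFE factors, in 0 of 29 (3.77% of all windows for each). These searches covered both strands, no 2 matches shown above overlap, and a match is a description of the letters, not of binding.

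The deposited values are log2 intensities after RMA, 1 per probe set, so a difference of 1 is a 2-fold change. Over 16755 probe sets the array medians ran from 5.85 to 5.92 and the median log2 difference, Gadd45a plasmid minus control plasmid, was -0.06. Gadd45a itself read 7.66 to 7.85 with control plasmid and 10.18 to 10.46 with Gadd45a plasmid (limma adjusted p = 7.74e-07; exact two-sided permutation p = 0.0286, the smallest that 70 labellings allow). RNA from the plasmid and from the mouse's own gene were not told apart. Of 10 fibre markers 7 were measured. Their mean level was 11.42 to 11.57 on control arrays and 11.06 to 11.14 on Gadd45a arrays, bright in both groups. Of these markers 0 were called higher and 4 lower, against 10.8% and 10.3% of all probe sets.

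Most of the myeloid genes were higher in muscles that received Gadd45a plasmid. With limma, at a Benjamini-Hochberg adjusted p under 0.05 over all probe sets, 24 of 34 measured members rose and 1 fell, against 21.1% of all probe sets called in either direction, 10.8% higher and 10.3% lower. The median log2 difference of the members was 0.53, and they ranged from -0.32 to 1.67. In 24 members each of the 4 Gadd45a values exceeded every control value and in 2 each was below every control value, while groups that do not overlap made up 26.9% of all probe sets (13.1% higher, 13.8% lower). Differences of at least 2-fold were found in Apoe, Gpnmb, Cd84, Adgre1 and Cd68, 5 of 34 members against 0.77% of all probe sets that were called and at least 2-fold higher. The heat map of deviations shows that the rises were present on each of the 4 Gadd45a arrays.

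**Figure D1:**
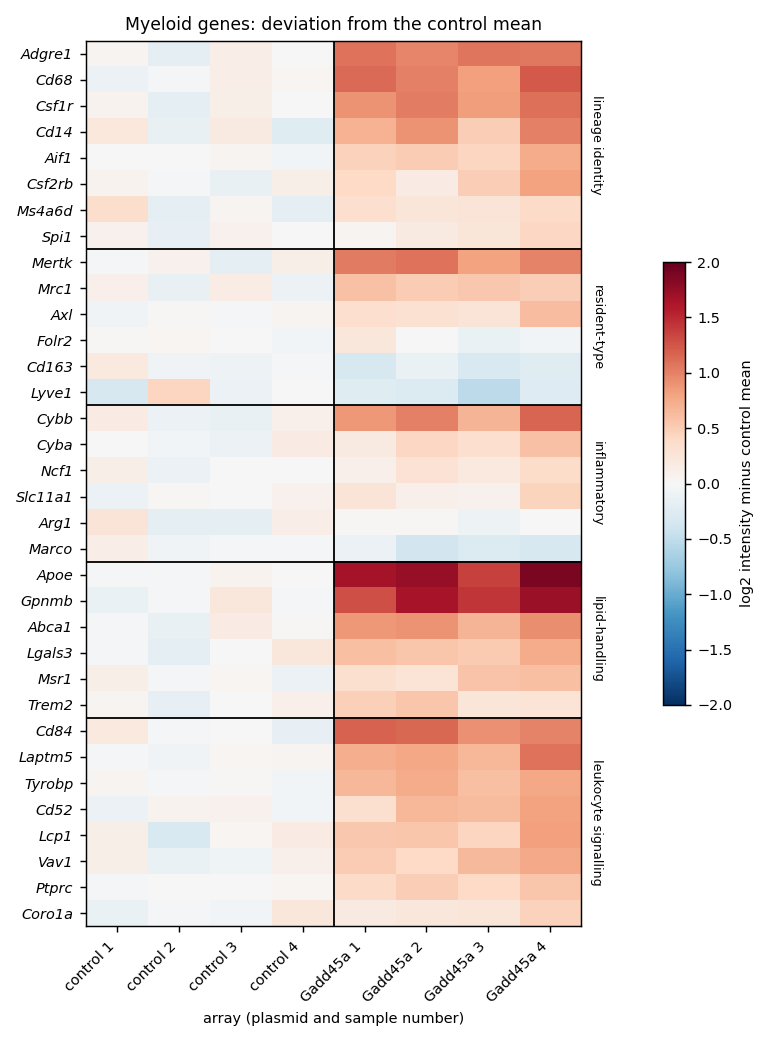
Heat map of the 34 measured myeloid genes (rows, by class and then by difference) on 8 arrays (columns); colour is the log2 intensity minus the gene's mean over the 4 control arrays. The 4 Gadd45a columns are red for most genes, darkest for Apoe and Gpnmb, and pale or blue for Folr2, Cd163, Lyve1, Arg1 and Marco.

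Lipid-handling genes rose without exception among the 6 measured, against 10.8% of all probe sets, with a median log2 difference of 0.73. Apoe, the apolipoprotein that carries cholesterol out of macrophages, read 8.48, 8.48, 8.58 and 8.50 on control arrays 1 to 4 and 10.18, 10.26, 9.88 and 10.40 on Gadd45a arrays 1 to 4. The lowest Gadd45a array was thus more than 1 log2 unit above the highest control array, and the 3.18-fold rise (1.67, SE 0.11, adjusted p = 3.45e-05) was the largest of any member. Gpnmb, a glycoprotein of lipid-laden and phagocytic macrophages whose window is shown above, read 6.90, 6.98, 7.25 and 6.99 with control plasmid and 8.32, 8.67, 8.46 and 8.76 with Gadd45a plasmid. Its groups were also more than 1 log2 unit apart, and the rise was 2.87-fold (1.52, SE 0.12, adjusted p = 7.42e-05). Abca1, the membrane pump that exports cholesterol to apolipoproteins, read 6.88 to 7.19 with control plasmid and 7.70 to 7.96 with Gadd45a plasmid (0.84, SE 0.09, adjusted p = 0.000273).

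Lgals3, the secreted lectin galectin-3, rose by 0.61 (SE 0.10) and Msr1, a scavenger receptor for modified lipoproteins, by 0.44 (SE 0.10). The smallest rise of the class was in Trem2, the lipid-sensing receptor that signals through Tyrobp, from 6.12 ± 0.11 to 6.50 ± 0.15 (SD, n = 4 each; 0.39, SE 0.09, limma adjusted p = 0.0178). The groups of Trem2 did not overlap, but its adjusted p was 0.0515 without Gadd45a array 1. It was 0.0747 and 0.097 without both arrays numbered 1 or 2, and that of Msr1 was 0.0525 and 0.0695 without those numbered 3 or 4. Apoe and Abca1 are also made by other cells of muscle, such as fibroblasts, and Lgals3 by many cell types. Of 10 fibroblast markers 7 rose and 0 fell, against 10.8% higher and 10.3% lower among all probe sets. The mean level of the fibroblast markers was 8.18 to 8.33 on control arrays and 8.67 to 8.79 on Gadd45a arrays. Periostin, Postn, had the largest difference among them (1.83), followed by the collagen gene Col6a3 (0.77). Dcn (-0.19, limma adjusted p = 0.0563, groups not overlapping), Pi16 (-0.19) and Thy1 (0.08) did not pass. Col1a1 lost its call in 8 of 12 fits that dropped an array or a same-numbered pair, and Lum in 9. The part of fibroblasts in the Apoe and Abca1 values was not tested.

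A further 20 genes tied to lipid-laden macrophages, none of them members, had 15 measured, of which 9 rose and 3 fell, with a median of 0.47. This count, and that of adipocyte markers below, is set against 10.8% higher and 10.3% lower among all probe sets. The elastase gene Mmp12 (2.84, SE 0.24), Lipa, the lysosomal acid lipase that frees cholesterol from its esters (1.18, SE 0.10), and the lectin receptor Clec4d (0.72, SE 0.13) rose the most. Ch25h, which makes 25-hydroxycholesterol, fell by 0.77 (SE 0.15). The other genes that fell, Lpl (-0.60) and Fabp4 (-0.40), are abundant in adipocytes too, and each lost its call in 2 of 12 fits that dropped an array or a same-numbered pair. Of 7 adipocyte markers 6 were measured, 0 rose and 3 fell, led by Adipoq (-0.73) and Cidec (-0.30, lost in 9 of the 12 fits), with mean levels of 5.84 to 6.01 on control and 5.44 to 5.70 on Gadd45a arrays.

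**Figure D2:**
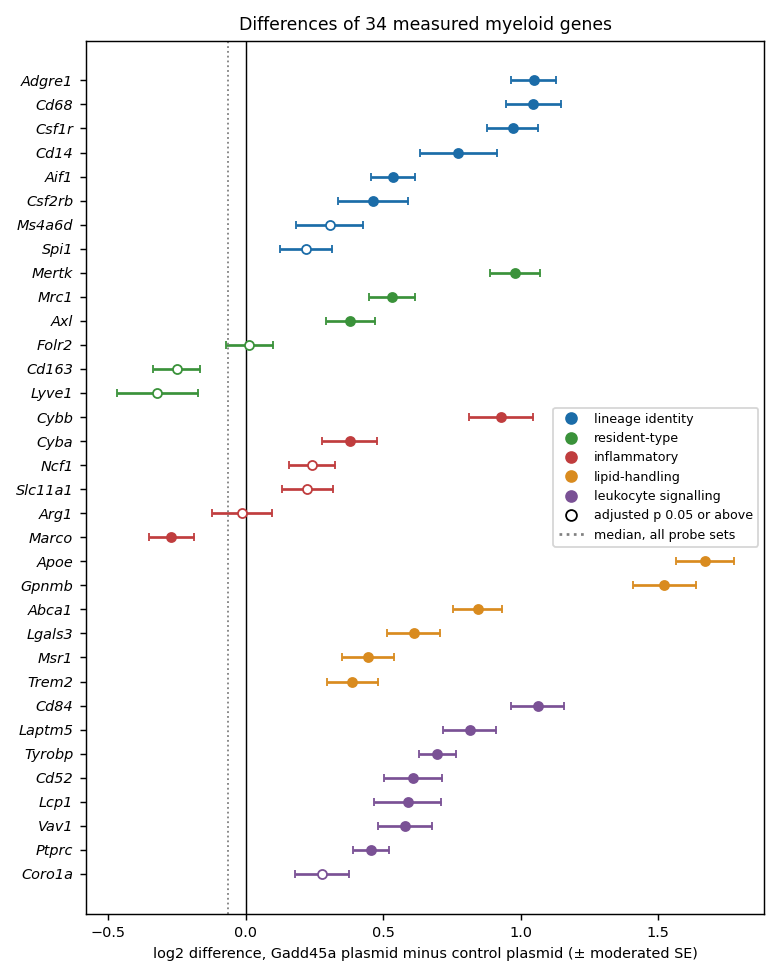
Log2 difference, Gadd45a plasmid minus control plasmid, of each measured myeloid gene with its moderated SE (n = 4 arrays per group), coloured by class; open points have an adjusted p of 0.05 or above, and the dotted line is the median of all probe sets, -0.06. All 6 lipid-handling genes lie to the right of 0.3, whereas resident-type genes spread from -0.32 (Lyve1) to 0.98 (Mertk).

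Resident-type genes were split. Of Mrc1, Cd163, Lyve1 and Folr2, named above for resident macrophages, only Mrc1 rose. The class also held Mertk and Axl, which rose too but were not named there. In the whole class of 6 measured genes, 3 rose, 0 fell and 3 did not pass the test, with a median of 0.20. Over all probe sets 10.8% were higher and 10.3% lower. Mertk, a receptor kinase that lets macrophages engulf dying cells, read 5.96, 6.06, 5.80 and 6.09 with control plasmid and 7.02, 7.06, 6.78 and 6.97 with Gadd45a plasmid, a 1.97-fold rise (0.98, SE 0.09, adjusted p = 0.000148) with no overlap. Mrc1, the mannose receptor, read 7.68 to 7.98 with control plasmid and 8.32 to 8.41 with Gadd45a plasmid (0.53, SE 0.08, adjusted p = 0.0022), so that the Gadd45a arrays were tightly grouped above the others. Axl, a relative of Mertk that fibroblasts and endothelium also express, rose from 7.03 ± 0.06 to 7.41 ± 0.16 (SD, n = 4 each; 0.38, SE 0.09, limma adjusted p = 0.0147). Its adjusted p was 0.0651 and 0.055 without both arrays numbered 1 or 2.

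The other 3 genes of this class did not pass. Cd163, the scavenger receptor for haemoglobin bound to haptoglobin, read 6.12, 5.85, 5.81 and 5.89 with control plasmid and 5.60, 5.78, 5.62 and 5.67 with Gadd45a plasmid. All of the latter lay below all of the former, but the difference of -0.25 (SE 0.09) had an adjusted p of 0.0649. Lyve1, a hyaluronan receptor of some resident macrophages and of lymphatic endothelium, read 5.49, 6.23, 5.70 and 5.82, then 5.57, 5.54, 5.28 and 5.55 (-0.32, SE 0.15, adjusted p = 0.145). The control arrays of Lyve1 were widely spread and overlapped the others. Folr2, the folate receptor of resident macrophages, stayed between 5.94 and 6.30 on all arrays (0.01, SE 0.08, adjusted p = 0.924).

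Markers of lymphatic endothelium were chosen after the Lyve1 values were seen, and neither of the 2 measured passed: Prox1 differed by 0.40 (adjusted p = 0.0834) and Pdpn by 0.24 (adjusted p = 0.0906). Of 10 blood endothelial markers 0 rose and 9 fell, led by Flt1 (-0.80) and Tek (-0.58), with mean levels of 6.87 to 6.96 on control and 6.46 to 6.54 on Gadd45a arrays. Their part in the Axl and Lyve1 values was not tested. Among 16 further genes of resident macrophages 12 were measured, 3 rose and 3 fell, with a median of 0.14. Among all probe sets 10.8% were higher and 10.3% lower. Selenop, a selenium carrier protein (0.71, SE 0.11), and the platelet factor gene Pf4 (0.60, SE 0.16, lost in 7 of the 12 fits) rose. The fatty acid transporter Cd36 (-0.69, SE 0.10), which fibres, endothelium and adipocytes make as well, and Timd4, a receptor for dying cells found on long-lived resident macrophages (-0.49, SE 0.08, adjusted p = 0.00226), fell.

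Inflammatory genes were mixed as well, with 2 of 6 higher, 1 lower and a median of 0.23. Over all probe sets 10.8% were higher and 10.3% lower. Cybb, Cyba and Ncf1 encode parts of the phagocyte oxidase, which makes superoxide. Cybb, the catalytic subunit of that enzyme, read 9.04, 8.75, 8.73 and 8.97 with control plasmid and 9.74, 9.87, 9.55 and 10.03 with Gadd45a plasmid. It rose 1.90-fold with no overlap between the groups (0.93, SE 0.12, adjusted p = 0.000655). Cyba, its membrane partner, read 7.05 to 7.32 and then 7.34 to 7.75 (0.38, SE 0.10, adjusted p = 0.0257), groups that nearly touched. Cyba lost its call in 6 of the 12 fits: its adjusted p was 0.0605 to 0.0624 without control array 2, control array 3, Gadd45a array 2 or Gadd45a array 4, and 0.12 and 0.0947 without both arrays numbered 2 or 3. It was 0.0527 and 0.0547 with cyclic loess and with quantile normalization. Ncf1, the cytosolic subunit that activates the oxidase, differed by 0.24 (SE 0.08, adjusted p = 0.0659), with overlapping groups.

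Marco, a scavenger receptor for bacteria and particles, was the member that fell. It read 5.65, 5.44, 5.48 and 5.49 with control plasmid and 5.40, 5.14, 5.23 and 5.19 with Gadd45a plasmid (-0.27, SE 0.08, adjusted p = 0.0411). The groups were separated by a narrow gap, and the call was lost in 10 of the 12 fits: leaving out any single array other than Gadd45a array 1 gave an adjusted p of 0.0563 to 0.0996, and leaving out both arrays numbered 2, 3 or 4 gave 0.123, 0.114 and 0.14. It was also lost with median centring (0.052), array weights (0.0546), quantile normalization (0.0819) and cyclic loess (0.115). Slc11a1, the metal transporter of the phagosome, differed by 0.22 (SE 0.09, adjusted p = 0.116). Arg1, the arginase of alternatively activated mouse macrophages, was counted in this class, which thus mixes activation states. It read 5.03 to 5.47 with control plasmid and 5.12 to 5.25 with Gadd45a plasmid, with full overlap (-0.01, SE 0.11, limma adjusted p = 0.943). Its sign turned with median centring, quantile normalization, cyclic loess and array weights.

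Cytokines and other inflammatory genes outside the list were mixed too: of 20, 18 were measured, 2 rose and 3 fell, with a median of -0.04, to be read against 10.8% higher and 10.3% lower among all probe sets. The chemokine gene Ccl3 (0.71, SE 0.17, lost in 3 of the 12 fits) and the interleukin gene Il1b (0.50, SE 0.14, lost in 7) rose. In the other direction, Ccl2, the chemokine that recruits monocytes (-0.61, SE 0.14, lost in 1), and the interferon-induced Cxcl10 (-0.48, SE 0.12, lost in 5) fell. Neutrophils also use the oxidase, and of 12 neutrophil markers 11 were measured, 0 rose and 2 fell, Mpo (-0.83, lost in 2 of the 12 fits) and Cxcr2 (-0.63, lost in 8, groups overlapping). The mean level of the neutrophil list was 5.99 to 6.69 on control arrays and 5.20, 5.76, 6.55 and 5.32 on Gadd45a arrays 1 to 4, so that Gadd45a array 3 lay within the control range. S100a8, chosen after its values were seen, read 7.49 to 8.61 on control arrays and 4.18, 6.49, 8.59 and 5.53 on Gadd45a arrays 1 to 4 (adjusted p = 0.087). The part of neutrophils in the Cybb and Cyba values was not tested.

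**Figure D3:**
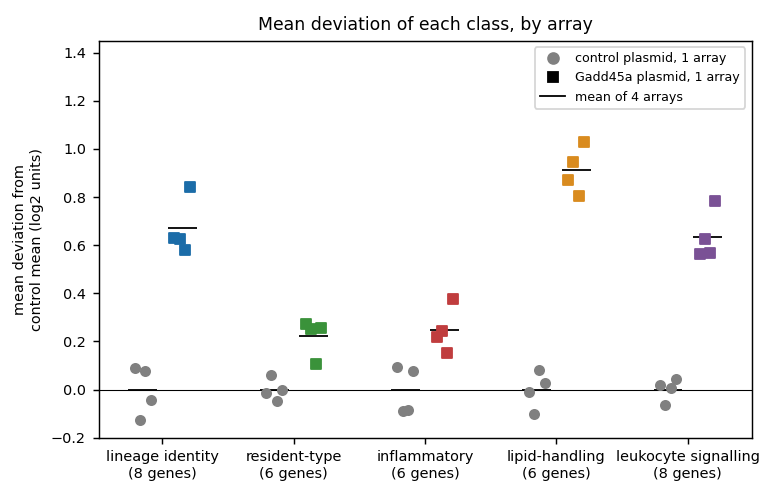
Mean deviation from the control mean, in log2 units, of the measured genes of each class on each array (circles, 4 control arrays; squares, 4 Gadd45a arrays; lines, means of 4 arrays). Gadd45a arrays run from 0.80 to 1.03 in the lipid-handling class, from 0.11 to 0.27 in the resident-type class and from 0.15 to 0.37 in the inflammatory class.

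Set side by side, the classes differed in size on each array, as the plot of class means shows. The mean deviation from the control mean was 0.80 to 1.03 on the Gadd45a arrays for lipid-handling genes, 0.58 to 0.84 for lineage genes and 0.56 to 0.78 for leukocyte signalling genes. For inflammatory genes it was 0.15 to 0.37 and for resident-type genes 0.11 to 0.27. On control arrays the class means stayed between -0.12 and 0.09. Brightness differed between the classes too. Lyve1, Cd163, Marco and Arg1 lay below the median brightness of all probe sets, as did Cd14 and Vav1, which rose. Every lipid-handling gene lay above it, the dimmest being Trem2 at percentile 62.5. The part of brightness in the class differences was not tested. The members were chosen with results known, so no test between classes was made, and the class means of the resident-type and inflammatory genes average genes that moved in different ways.

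Lineage genes rose in 6 of 8 cases, against 10.8% of all probe sets, with a median of 0.65 and no member below 0. Adgre1, the F4/80 surface receptor that defines mouse macrophages, read 7.83, 7.57, 7.90 and 7.78 with control plasmid and 8.85, 8.75, 8.84 and 8.83 with Gadd45a plasmid. Its Gadd45a arrays lay close together and far above the rest (2.07-fold; 1.05, SE 0.08, adjusted p = 7.93e-05). Cd68, a glycoprotein of macrophage lysosomes with the window shown above, read 8.36 to 8.61 and then 9.30 to 9.71 (1.05, SE 0.10, adjusted p = 0.000167). Csf1r, the receptor for the growth factors CSF1 and IL-34, read 6.77, 6.51, 6.82 and 6.71, then 7.60, 7.73, 7.54 and 7.81. It rose with no overlap (1.96-fold; 0.97, SE 0.09, adjusted p = 0.000153).

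Cd14, the co-receptor for bacterial lipopolysaccharide, rose by 0.77 (SE 0.14) and Aif1, the actin-binding protein Iba1, by 0.54 (SE 0.08). Csf2rb, the beta chain shared by the receptors for GM-CSF, interleukin-3 and interleukin-5, rose by 0.46 (SE 0.13, adjusted p = 0.0294). Csf2rb lost its call in 8 of the 12 fits: its adjusted p was 0.0525 to 0.0687 without control array 2, control array 3 or Gadd45a array 1, 3 or 4, and 0.0793, 0.126 and 0.0631 without both arrays numbered 1, 3 or 4. Spi1, which encodes PU.1, read 6.73, 6.48, 6.73 and 6.63 with control plasmid and 6.69, 6.82, 6.88 and 7.05 with Gadd45a plasmid. These groups overlapped, and the difference of 0.22 (SE 0.10, adjusted p = 0.129) did not pass. Ms4a6d, a membrane protein of the MS4A family, differed by 0.30 (SE 0.12, adjusted p = 0.0999). Control array 1 was the highest control array for Ms4a6d, and without it the difference was 0.42 (limma adjusted p = 0.0125). Ms4a6d passed in 2 of the 12 fits only. Its limma adjusted p was 0.244 and 0.336 without both arrays numbered 2 or 4.

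Signalling and cytoskeleton genes of leukocytes rose in 7 of 8 cases, against 10.8% of all probe sets, with a median of 0.60. Cd84, a receptor of the SLAM family through which leukocytes contact each other, read 7.20, 6.98, 7.02 and 6.85 with control plasmid and 8.20, 8.16, 7.93 and 8.01 with Gadd45a plasmid. Its lowest Gadd45a value was well above its highest control value (2.09-fold; 1.06, SE 0.10, adjusted p = 0.000139). Laptm5, a lysosomal membrane protein of blood cells, rose from 8.75 ± 0.06 to 9.57 ± 0.19 (SD, n = 4 each; 0.81, SE 0.10, limma adjusted p = 0.000524). Tyrobp, the adaptor DAP12 that carries the signal of Trem2 and related receptors, read 10.76 to 10.86 and then 11.41 to 11.59 (0.70, SE 0.07, adjusted p = 0.000179). The differences were 0.70 for the adaptor and 0.39 for Trem2, and no test between the 2 genes was made.

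Cd52, a small surface glycopeptide, rose by 0.61, the actin bundler Lcp1 by 0.59, the exchange factor Vav1 by 0.58 and Ptprc, the phosphatase CD45 of all white blood cells, by 0.46 (SE 0.07, adjusted p = 0.00135). Coro1a, an actin regulator of leukocytes, read 6.50, 6.60, 6.57 and 6.86 with control plasmid and 6.82, 6.87, 6.87 and 7.10 with Gadd45a plasmid. Control array 4 overlapped the Gadd45a arrays, and the difference of 0.28 (SE 0.10) had a limma adjusted p of 0.071, or 0.0271 without control array 4. Coro1a passed in 1 of the 12 fits only, and its limma adjusted p was 0.179 without both arrays numbered 2. These genes are also expressed by lymphocytes. Of 12 T cell markers 11 were measured, 4 rose and 0 fell, led by the interleukin-7 receptor Il7r (1.04) and Cd3g (0.78). Their mean level was 5.89 to 6.09 on control arrays and 6.13 to 6.41 on Gadd45a arrays. The T cell markers Cd3d, Cd247, Cd4, Cd8a, Cd2, Cd5 and Cd6 did not pass, with differences from -0.21 (Cd247) to 0.28 (Cd3d). Of 8 B cell markers 7 were measured, 1 rose (Cd22, 0.50) and 1 fell (Blk, -0.25, lost in 10 of the 12 fits), with mean levels of 4.96 to 5.09 and 5.03 to 5.08. Of 7 natural killer cell markers 6 were measured, 1 rose (Klrd1, 0.60) and 1 fell (Gzma, -0.51, lost in 8), with mean levels of 6.54 to 6.77 and 6.30 to 6.77. Dendritic cells share many of these genes: of 8 markers 7 were measured and 1 rose (Clec9a, 0.56, lost in 8 of the 12 fits, groups overlapping), with mean levels of 5.71 to 5.93 and 5.88 to 6.05. The counts of these lists are to be read against 10.8% higher and 10.3% lower among all probe sets. No value of these lists was 0, since RMA gives every probe set a level, and their part in the rise of the leukocyte genes was not tested.

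**Figure D4:**
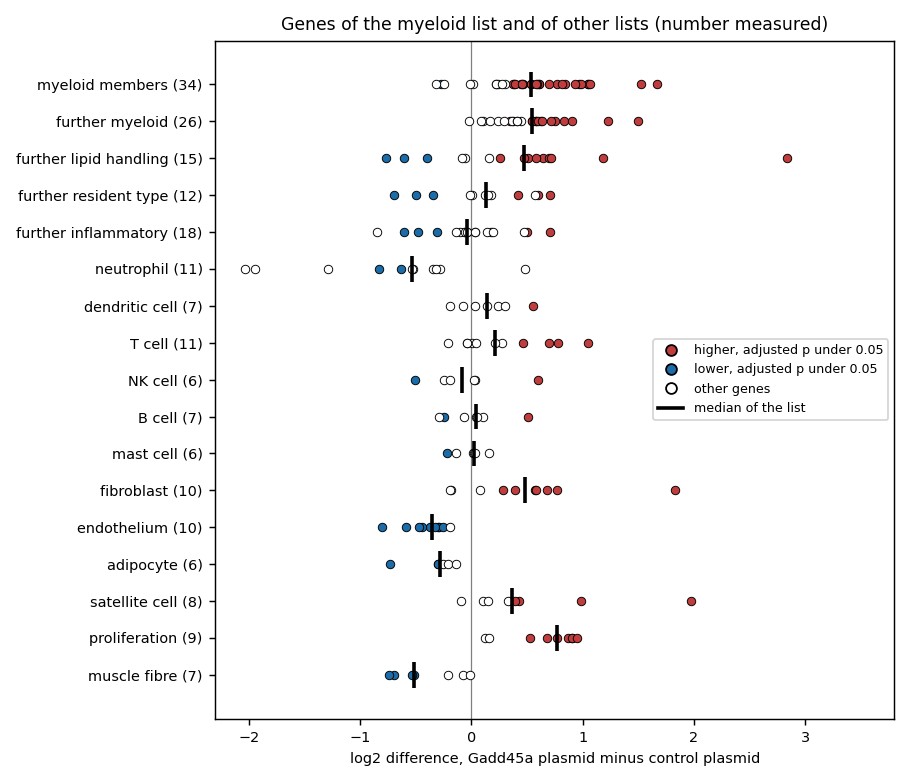
Log2 difference of each measured gene of the myeloid list and of 16 other lists, with the number measured in parentheses; red points were higher and blue points lower at an adjusted p under 0.05, open points did not pass, and bars are list medians. The median is 0.53 for the myeloid members, 0.55 for further myeloid genes and -0.04 for further inflammatory genes.

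Among myeloid genes outside the list the called ones were all higher. Of 30 such genes 26 were measured, 16 rose and 0 fell, with a median of 0.55. These counts are to be read against 10.8% higher and 10.3% lower among all probe sets. Clec7a, the receptor dectin-1 for fungal glucans, read 5.84 to 6.43 with control plasmid and 7.38 to 7.96 with Gadd45a plasmid (1.50, SE 0.15, adjusted p = 0.000211). The complement gene C1qa (1.23, SE 0.20), the inhibitory receptor Sirpa (0.91, SE 0.09) and Ly86, a partner of a Toll-like receptor relative (0.83, SE 0.10), also rose with no overlap. Itgam, Itgb2, C1qb, Fgr, Was, Rac2, Cx3cr1, Cd86, Irf8 and Cebpa did not pass, with differences from -0.03 (Irf8) to 0.45 (C1qb). This list, like the members, was set with earlier results of these data known and is not independent evidence.

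The members were not spread evenly over the Gadd45a arrays. Gadd45a array 4 held the highest Gadd45a value in 24 of 34 members and the lowest in 1, whereas array 3 held the lowest value in 19 and the highest in 0. Over all probe sets array 4 was the highest in 26.5% and array 3 the lowest in 27.2%. This order is not shown to be particular to the members. Among the Gadd45a arrays, the T cell, B cell, natural killer cell, dendritic cell, fibroblast, proliferation and fibre lists also had their highest mean on array 4. The fibre list was lowest on array 3 as well (11.06, against 11.14 on array 4). The neutrophil, mast cell, endothelial, adipocyte, satellite cell, further resident-type and further inflammatory lists were not highest on array 4. Among the control arrays, array 2 held the lowest value in 13 members and the highest in 2. Over all 34 members the mean deviation was 0.52, 0.55, 0.46 and 0.68 on Gadd45a arrays 1 to 4, so every one of them stood well above the control arrays, which lay between -0.07 and 0.04. The signal of Gadd45a itself was 10.35, 10.18, 10.46 and 10.34 on the same arrays, highest on array 3, where the myeloid mean was lowest. No relation between these values was tested. Without Gadd45a array 4 the count was 22 members higher and 0 lower, and without Gadd45a array 3 it was 23 and 0.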

How the data were processed

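RNA of 8 muscles was measured on 1-colour arrays. Per the labels' protocols, cDNA made from total RNA by SPIA amplification was biotin-labelled before hybridisation. Deposited values are log2 intensities. GCOS, RMA and mm9 appear, with no version, in the submitters' processing notes. RMA subtracts background, equalises the arrays' distributions and summarises probes, so dim probe sets can show compressed changes. Of 16755 probe sets, 14996 had 1 symbol in the array's annotation, 1019 several and 740 none. Gene identifiers of all 34 measured members were found in a RefSeq table (GRCm38.p6), used for names and promoter windows.

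Limma 3.58.1 in R 4.3.3 (lmFit, eBayes, two-sided, no block) was fitted to the 8 arrays with Benjamini-Hochberg adjustment over all probe sets and a threshold of 0.05. Each SE is moderated. The fit was tested on simulated data of the same 2 groups, where 200 of 16755 probe sets were changed: 50% of shifts by 0.5 log2 units and 91% of shifts by 1 were found, and 10 unchanged probe sets were called. In the deposited data 3542 probe sets were called, far more than were changed in the simulation. The adjusted p depends on that share, so the recovery applies to the simulated setting only. Members, classes, lists and motifs were chosen with earlier results of these data known. Per-array values are given for the 3 largest and the smallest difference of each class and for members that fell; elsewhere up to 4 changed genes per macrophage list and up to 2 per other list are named. Lpl, Fabp4, S100a8, Prox1, Pdpn and other members described by array were chosen after their values were seen. The alternatives tried were 3 other scalings, the sample number as a block, a brightness filter, other variance settings, a gene-level table, a threshold of 0.01, and leaving out arrays or same-numbered pairs.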

Additional observations from a re-analysis of the deposited data

Results flagged for a closer look

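Of 146 groups of 4 arrays examined for 1 array far from the others, 3 stood out, where chance gives about 1 in 20. Lyve1 read 5.285 on Gadd45a array 3 and 5.539 to 5.57 on the other Gadd45a arrays. Cxcr2, the neutrophil chemokine receptor, read 5.769 on the same array and 5.154 to 5.195 on the others of its group. Ly86 read 8.259 on control array 1 and 8.59 to 8.636 on the other control arrays.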

How the results depend on the processing

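Of 34 members, 19 called ones kept their call in each of 12 fits on fewer arrays (1 array or 1 same-numbered pair dropped), and 6 (Csf2rb, Axl, Cyba, Marco, Trem2 and Msr1) lost it in at least 1. Leaving out arrays or pairs gave 21 to 25 members higher, 0 to 1 lower, and 1876 to 3174 probe sets changed, against 3542 with all arrays; fewer samples entered these fits. At an adjusted p under 0.01, 1630 probe sets passed, with 19 members higher and 0 lower. The count of lower members was also 0 with array weights, cyclic loess, median centring, quantile normalization, and with the dimmer probe sets (below the median) removed, Marco among them; for the scalings and weights the cause was not tested. Arg1, called in no fit, turned to 0.0147 with array weights, 0.0815 with cyclic loess, 0.0084 with median centring and 0.063 with quantile normalization, and ran from -0.093 to 0.0702 when arrays or pairs were dropped, as Folr2 did from -0.0569 to 0.0611. No scaling moved the median of all probe sets by 0.1. With the sample number as a replicate block, 25 members rose (Coro1a was added, adjusted p = 0.0326), 1 fell, and 3171 probe sets changed. Same-numbered arrays had deviations that correlated at 0.0451 to 0.0971, below the 0.1 set for pairing, though each array correlated best with its own number. Below the median brightness of all probe sets lay 6 members, of which 3 were called. RMA can compress changes of dim probe sets, and the part of this in these members was not tested.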

Other observations

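Lists that bear on growth and repair moved beside the myeloid genes. Of 10 proliferation genes 9 were measured, 7 rose and 0 fell, with a median of 0.77. The spindle gene Prc1 (0.95) and the motor gene Kif11 (0.91) had the largest differences. The mean level of these genes was 5.84 to 6.01 on control arrays and 6.40 to 6.67 on Gadd45a arrays. Of 8 satellite cell genes 4 rose and 0 fell, led by the fusion gene Mymk (1.97) and the differentiation factor Myog (0.99), with mean levels of 5.88 to 6.0 and 6.38 to 6.60. The satellite cell genes Pax7 (0.11), Myf5 (0.15), Myod1 (0.33) and Cdh15 (-0.09) did not pass. Which cells made the proliferation transcripts was not tested. Of 7 mast cell markers 6 were measured and 1 fell, Tpsb2 (-0.22, lost in 10 of 12 fits on fewer arrays), with mean levels of 4.84 to 5.02 and 4.77 to 4.99. The counts of these lists are set against 10.8% higher and 10.3% lower among all probe sets. Among the fibre markers Pygm (-0.74) and Mybpc2 (-0.70) fell the most.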
